A study of Rattus norvegicus with 32 samples.

Results

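The genes described here encode 5 families of enzymes that process drugs, toxins and the body's own hormones and lipids: cytochromes P450 (Cyp), aldehyde dehydrogenases (Aldh), glutathione S-transferases (Gst), UDP-glucuronosyltransferases (Ugt) and sulfotransferases (Sult). Members were taken by gene symbol, as every measured gene whose name starts with 1 of those 5 family roots, apart from Cyp4b1 and Cyp2e1. The rule uses names only, but it was set with earlier results of these data known. This gave 88 of the 5022 genes with a single symbol on the array: 49 Cyp, 10 Aldh, 9 Gst, 10 Ugt and 10 Sult genes, of which 87 could be tested. Lung RNA of male Sprague-Dawley rats of 280 to 300 g was compared with a common reference, a pool of RNA from organs of untreated rats, on 2-colour spotted arrays. Bled rats carried arterial catheters and a telemetry device, had 40% of their estimated blood volume withdrawn after recovery from that surgery, and were killed at 7 times after it: 1, 3 and 6 h, then 16 and 24 h, then 48 and 72 h. Sham rats had the same surgery and no bleeding, and control rats had neither. The time between surgery and death of the sham rats is not clear from the labels, so time since surgery and bleeding cannot be told apart. The labels name no transgene or drug beyond anesthesia in any group.

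In the liver these enzymes form a chain. Cytochromes P450 add or expose an oxygen, aldehyde dehydrogenases oxidise reactive aldehydes to acids, and transferases then attach glutathione, a sugar acid or sulfate so that the product can leave the cell. The lung holds a smaller set of them, mainly in club cells and type II pneumocytes of the airway and alveolar lining, and several of the families also make or inactivate steroids, retinoids, vitamin D and fatty acid signals. Some members, among them Cyp1a1, Cyp1a2, Cyp1b1 and Ugt1a6, are classic targets of the aryl hydrocarbon receptor AHR, a ligand-activated transcription factor.

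Values below are log2 ratios of lung over the pool after each array's median was set to 0, averaged over the spots of a gene. A value of 1 is a doubling relative to that gene's own level in the pool. It therefore ranks genes by lung-to-pool ratio and not by abundance. No dye swap is labelled, so dye bias is part of each level and of the calls against 0, and cannot be told apart from them. The ratio was read as lung over pool because the median of the type II pneumocyte markers lay above that of the liver markers on 30 of the 30 arrays used (0.86 to 2.76 against -1.37 to 0.29). Sham replicate 2 and 16 h replicate 3 were left out: their liver marker medians were 3.10 and 2.50, over 18 of 20 measured liver markers. Groups then held 3 control, 5 sham, 5 arrays at 6 h, 2 at 16 h and 3 at each other time. Each array gave a value for 12151 to 12895 of 13056 spots. Which rats, cages or days the arrays came from is not labelled, so p-values measure the spread between these samples. In whole lung, fewer cells of a type and less RNA per cell cannot be told apart. The spots of a gene lay a median of 0.13 apart, and over the 30 arrays a member's SD had a median of 0.57, from 0.19 for Cyp2j3 to 1.45 for Sult1c3.

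In unbled lung the families were spread over a wide range of ratios. The mean over the 8 control and sham arrays had a family median of 0.48 for Aldh, 0.03 for Gst, -0.22 for Cyp, -0.37 for Ugt and -0.53 for Sult. Against a log2 ratio of 0, 59 of 87 members were called in limma (Benjamini-Hochberg adjusted p under 0.05 over all 5993 features tested), 24 higher and 35 lower, beside 55.4% of all features. The members' median was -0.17, against -0.02 over all features. The share of members called was 67.8%.

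Among the cytochromes P450, Cyp11a1, the cholesterol side-chain cleavage enzyme of steroid synthesis, had a mean of 1.09 ± 0.82 (SD, n = 8 arrays), from 0.12 to 2.73. Cyp2b21 followed at 1.08 ± 0.36, from 0.56 to 1.56. Cyp2b3 stood at 0.78 ± 0.19 and Cyp2f4, the club cell enzyme known for activating naphthalene, at 0.74 ± 0.13. The neighbours in this order did not differ beyond their SDs, and Cyp11a1 was the most variable of the 4. At the other end were Cyp19a1, the aromatase that makes estrogens, at -2.13 ± 0.71, Cyp2c12 at -1.64 ± 0.22 and Cyp2j4 at -1.60 ± 0.54. Each of these 7 genes was called against 0, with adjusted p (limma) from 1.2e-10 for Cyp2c12 to 0.00022 for Cyp2f4.

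Aldehyde dehydrogenases lay mostly above the array median. Aldh1a1, which oxidises retinal to retinoic acid, was at 1.10 ± 0.42 (SD, n = 8), its relative Aldh1a2 at 0.80 ± 0.27 and Aldh1l1, a folate enzyme, at 0.65 ± 0.42. Aldh6a1, which acts in valine breakdown, was lowest at -1.02 ± 0.49, followed by Aldh1a3 at -0.85 ± 0.47 and Aldh5a1, which clears a breakdown product of the transmitter GABA, at -0.18 ± 0.42. Of the 10 genes 5 were called above 0 and 2 below it. The 3 highest overlapped one another in their single arrays.

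Conjugating enzymes included the lowest ratios of all members. Ugt2b1 was at 0.91 ± 0.41 and Ugt1a6, which glucuronidates phenols, at 0.43 ± 0.14, followed by Ugt2b7 at 0.0093 ± 0.37, while Ugt1a5 was at -1.63 ± 0.47, Ugt2a1 at -2.14 ± 0.74 (n = 7) and Ugt2b15 at -2.45 ± 0.52 (n = 7). Sult1a1, the phenol sulfotransferase, was at 0.80 ± 0.31, Sult4a1, an orphan member best known from brain, at 0.64 ± 0.46 and Sult2a1 at 0.42 ± 0.25. Sult1c3, Sult1c2a and Sult2a2 were lowest at -1.42 ± 0.26, -2.28 ± 0.93 and -2.44 ± 0.91 (n = 7). Glutathione transferases kept closest to the array median, from Gstt1 at -0.92 ± 0.38, Gsta2 at -0.92 ± 1.03 and Gstt2 at -0.80 ± 0.15 up to Gsta1 at 0.06 ± 0.33, Gstp1 at 0.19 ± 0.32 and Gstm7 at 0.32 ± 0.24. Gstp1 was printed from 2 sequence accessions that disagreed, with means over the 30 arrays of -0.62 and 0.37, and its average is uncertain.

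**Figure D1:**
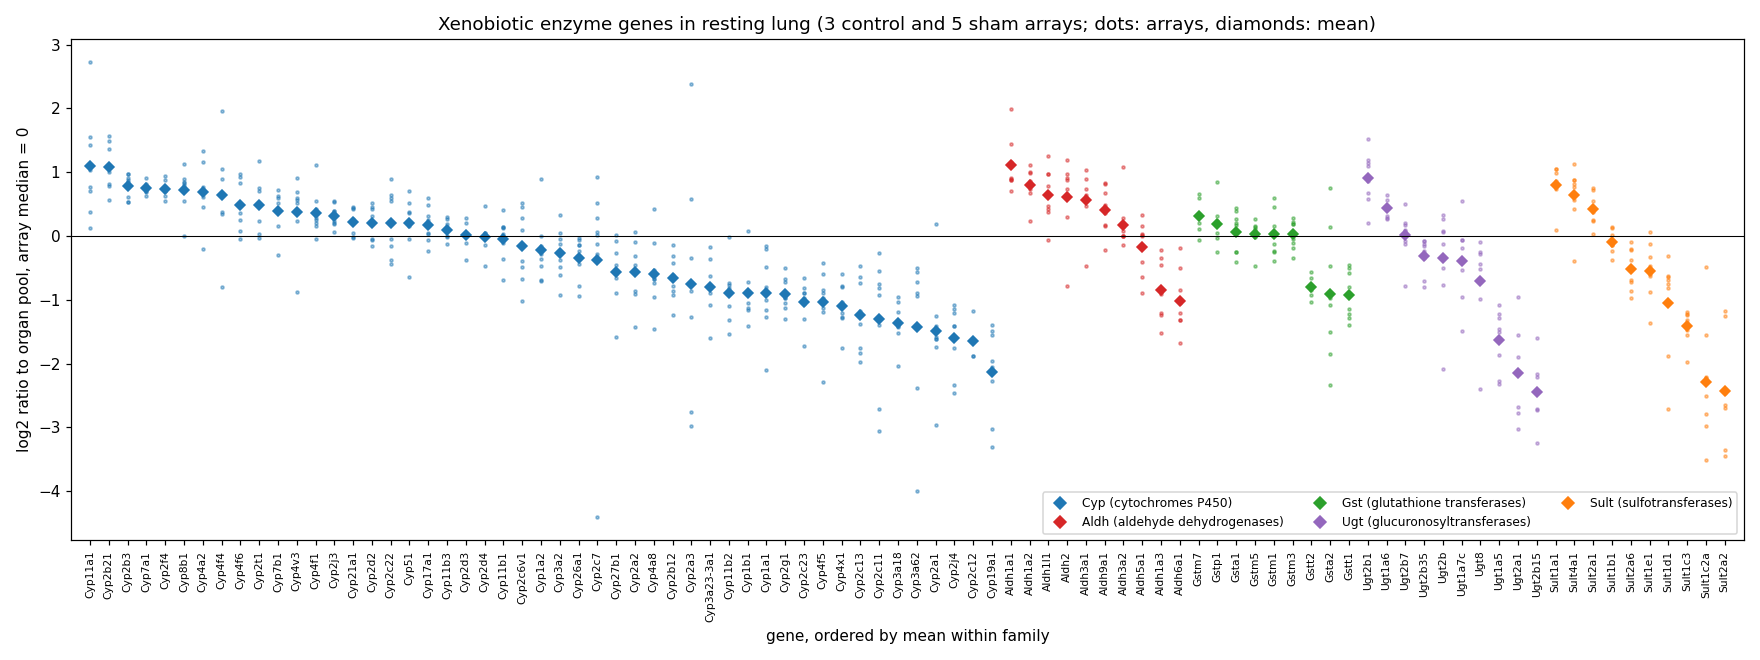
Log2 ratio of lung to the organ pool (y axis, array median 0) of the 88 genes, grouped by family and ordered by mean. Small dots are the 3 control and 5 sham arrays and diamonds are their means, which run from 1.10 for Aldh1a1 to -2.45 for Ugt2b15.

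No member was called between sham and unoperated lung. Sham against control gave 0 calls among the members, beside 0% of all features. At an unadjusted p under 0.05 there were 4 of 87 (4.6%), beside 4.71% of all features. The median difference of the members was 0.00, against 0.02 over all features. The 4 smallest p belonged to Cyp2c7 (1.57 ± 0.64, SE), Cyp2c6v1 (0.92 ± 0.39), Ugt2a1 (-0.84 ± 0.39) and Sult1c2a (0.90 ± 0.43), each with an adjusted p of at least 0.997 in limma. The Cyp2c7 difference came from control replicate 1 at -4.41 and was 0.042 without it, and that of Sult1c2a was 0.54 without sham replicate 4 and 0.57 without control replicate 3.

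After bleeding, calls among the members came and went with time. All 7 comparisons with a time share the same 5 sham arrays, so they are not independent of one another. At 1 h 0 of 87 members were called, beside 0% of all features. At an unadjusted p under 0.05 there were 8 (9.2%), beside 10.8% of all features. At 3 h 2 members fell, beside 2.8% called overall. At 6 h 0 were called, beside 0%, and 24 (27.6%) had an unadjusted p under 0.05, beside 18.7% of all features. At 16 h, with 2 arrays, 1 member fell, beside 0.0667%. At 24 h 7 members fell and 0 rose, beside 3.55%, and at 48 h 1 rose, beside 1.17%. At 72 h 4 rose and 5 fell, beside 5.91%. An F test over the 7 times called 9 members (Aldh3a2, Cyp1a2, Cyp2c23, Sult4a1, Ugt1a6, Sult1e1, Cyp11b1, Gstt2 and Sult2a2), beside 5.69%, and the mean of the 7 times against sham called 4, 1 higher and 3 lower, beside 3.42%. The 24 h and 72 h counts were the largest, 8.05% and 10.3% of the tested members. By range, 12 of 87 members at 24 h had every bled array below every sham array, beside 6.57% of all features, and 1 had every array above, beside 4.89%. At 72 h 12 were below, beside 9.19%, and 7 above, beside 9.38%.

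The members as a whole stayed near the array median. Over the 7 times the median change of the members lay between -0.12 (1 h) and 0.11 (72 h), against -0.01 and 0.02 for all features at those times. Single genes changed in both directions. When the ratios were left uncentred the median of all features at 24 h was -0.15 in place of 0.04, and all features then split into 30 higher and 389 lower at 24 h in place of 51 and 162. The changes below are relative to the array median.

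**Figure D2:**
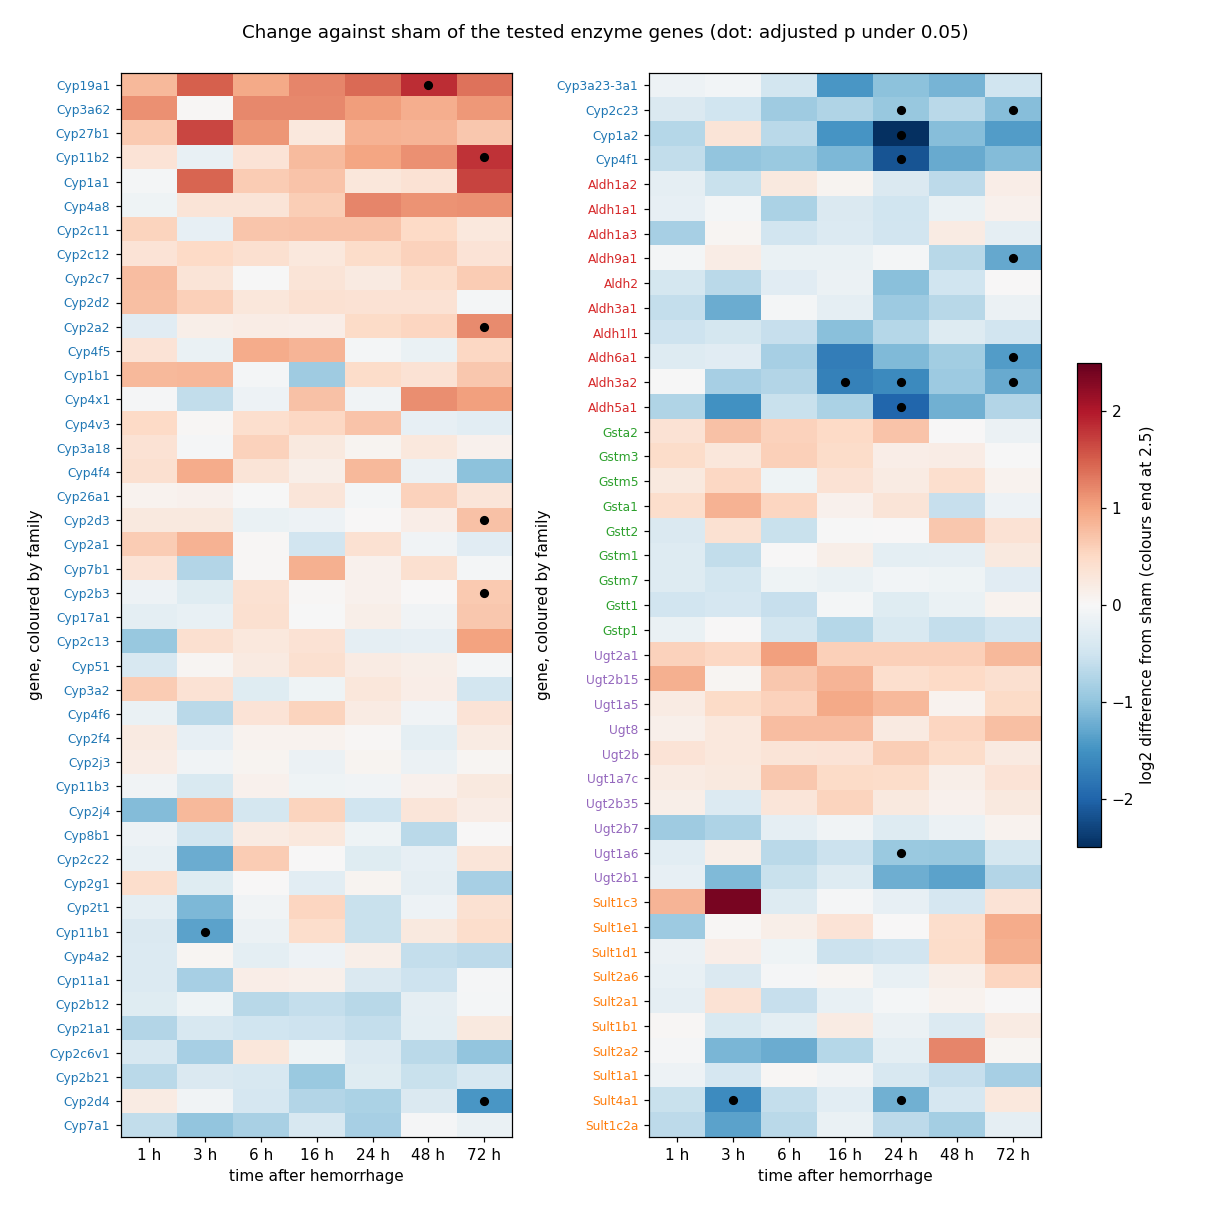
Log2 difference from sham of the 87 tested genes (rows, names coloured by family) at the 7 times (columns), red for higher and blue for lower, with a black dot where the adjusted p was under 0.05. The dots are scattered over families, with 7 at 24 h and 9 at 72 h, and the Aldh names carry mostly blue cells.

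Cyp1a2, which oxidises caffeine and aromatic amines, made the largest called change. Cyp1a2 read -0.16, -0.00, 0.90, -0.47 and -0.69 on the 5 sham arrays, -0.37, -0.29 and -0.71 in controls, and -3.70, -1.39 and -2.89 at 24 h. The 24 h arrays all lay below every sham and control array, as did those at 16, 48 and 72 h, whereas 1, 3 and 6 h overlapped sham. The change at 24 h was -2.58 ± 0.49 (SE, adjusted p = 0.0052, limma), and the F test over the times gave an adjusted p of 0.0213. The 24 h call held when any 1 array was omitted (adjusted p at most 0.0454) and with all 32 arrays (-2.90, adjusted p = 0.00927). With all 32 arrays the F test no longer called it (adjusted p = 0.0622). The spots of Cyp1a2 lay a median of 0.40 apart and at most 3.39, and 2 spot values were at or below a ratio of 0.05. Its 24 h call was kept with near-floor and near-ceiling ratios missing.

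Its chromosomal neighbour Cyp1a1 did not follow. Cyp1a1, the most AHR-inducible P450, had 3 h arrays at 1.55, 1.25 and -0.38 and 72 h arrays at 0.31, -0.16 and 2.98, against -1.26, -0.49, -1.16, -0.20 and -0.16 in sham. Groups overlapped at both times, and none of its comparisons with sham was called. Cyp1b1, also an AHR target, ranged from -3.11 to 0.56 over the bled arrays and was not called either. Its arrays at 3 h and at 72 h nevertheless all lay above every sham array. The receptor gene Ahr, not a member, fell by 1.66 at 3 h (SE 0.27, adjusted p = 0.00921), where its partner Arnt differed from sham by -0.12 (not called).

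Promoter sequences are shown for the 6 of 7 genes called lower at 24 h that have a window in the table, 2 of them classic AHR targets, to set their start regions side by side. Each line is the 250 bases before the annotated start from RefSeq (build GRCr8), 5′ to 3′ on the gene's strand, with capitals marking the AHR core motif GCGTG on either strand. Windows are chr10:46448336-46448585 (minus) for Aldh3a2, chr9:96194768-96195017 (plus) for Ugt1a6, chr8:66978150-66978399 (minus) for Cyp1a2, chr1:252863068-252863317 (minus) for Cyp2c23, chr7:12672554-12672803 (minus) for Cyp4f1 and chr17:40560123-40560372 (plus) for Aldh5a1.
Aldh3a2: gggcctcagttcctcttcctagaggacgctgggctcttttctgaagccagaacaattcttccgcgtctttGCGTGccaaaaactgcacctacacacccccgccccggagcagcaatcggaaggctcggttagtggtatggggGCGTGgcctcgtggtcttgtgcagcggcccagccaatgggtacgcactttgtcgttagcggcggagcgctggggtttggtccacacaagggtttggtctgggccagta
Ugt1a6: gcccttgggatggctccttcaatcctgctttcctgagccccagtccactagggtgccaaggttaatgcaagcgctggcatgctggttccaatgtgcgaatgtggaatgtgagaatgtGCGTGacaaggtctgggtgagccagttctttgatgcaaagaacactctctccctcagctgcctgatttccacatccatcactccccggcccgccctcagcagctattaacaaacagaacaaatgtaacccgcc
Cyp1a2: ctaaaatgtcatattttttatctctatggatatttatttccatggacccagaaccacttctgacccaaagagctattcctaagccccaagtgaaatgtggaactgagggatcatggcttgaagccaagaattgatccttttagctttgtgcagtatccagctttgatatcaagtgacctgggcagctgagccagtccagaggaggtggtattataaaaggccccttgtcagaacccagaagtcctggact
Cyp2c23: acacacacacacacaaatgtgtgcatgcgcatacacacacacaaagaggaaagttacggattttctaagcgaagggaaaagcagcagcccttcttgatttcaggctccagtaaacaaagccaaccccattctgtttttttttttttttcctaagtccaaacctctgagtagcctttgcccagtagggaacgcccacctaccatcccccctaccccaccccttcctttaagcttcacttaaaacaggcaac
Cyp4f1: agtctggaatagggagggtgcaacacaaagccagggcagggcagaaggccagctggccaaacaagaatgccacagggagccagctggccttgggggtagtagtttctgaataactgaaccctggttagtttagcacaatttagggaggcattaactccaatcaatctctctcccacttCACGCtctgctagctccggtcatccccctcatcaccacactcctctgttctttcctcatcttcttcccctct
Aldh5a1: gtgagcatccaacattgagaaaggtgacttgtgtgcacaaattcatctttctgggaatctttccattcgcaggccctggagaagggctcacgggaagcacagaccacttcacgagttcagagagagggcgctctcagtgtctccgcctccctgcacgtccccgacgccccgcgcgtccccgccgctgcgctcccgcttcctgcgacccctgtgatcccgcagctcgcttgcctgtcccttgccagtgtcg
Aldh3a2 had 2 matches, at 180 and 108 bases before its start, Ugt1a6 had 1, 133 bases before, Cyp4f1 had 1, 72 bases before, and Cyp1a2, Cyp2c23 and Aldh5a1 had 0. A window was found for 68 of the 88 members, and 18 of them (26.5%) held the motif, beside 27.2% of all 27457 promoters. The antioxidant response motif TGACNNNGC, on either strand, was in 5 of 68 (7.35%) beside 10.2%. These are letter matches in 250 bases and not measured binding sites.

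Cyp2c23, an arachidonic acid epoxygenase best known from rat kidney, had a smaller but steadier shift. Sham arrays read -0.89, -1.07, -0.89, -0.67 and -0.97, 24 h arrays -1.75, -2.12 and -1.68, and 72 h arrays -1.52, -2.24 and -2.11. At each of the 6 times from 3 to 72 h every bled array lay below every sham array. The 3 controls read -1.31, -0.81 and -1.72 and overlapped both, so the separation is from sham and not from unoperated lung. The change was -0.95 ± 0.21 at 24 h (adjusted p = 0.0131), -1.06 ± 0.21 at 72 h (adjusted p = 0.00599) and -0.74 ± 0.14 over the mean of the 7 times (adjusted p = 0.0071). The mean over times held under every omission of 1 array. The 24 h call was lost without 24 h replicate 2 (-0.82, adjusted p = 0.0538) or 24 h replicate 3 (-1.04, 0.0504), and the 72 h call without 72 h replicate 2 (-0.91, 0.0703) or 72 h replicate 3 (-0.98, 0.0641). Sham replicate 2, left out, read 2.08, and with all 32 arrays the 24 h change was -1.45 (adjusted p = 0.0762).

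Cyp4f1, a fatty acid and leukotriene hydroxylase, also lay below every sham array at each time from 3 to 72 h. Sham arrays read 0.25, 1.11, -0.05, 0.15 and 0.27, and 24 h arrays -2.02, -0.26 and -3.15. The 24 h arrays differ widely among themselves. The change at 24 h was -2.15 ± 0.42 (adjusted p = 0.0055) and was lost without 24 h replicate 3 (-1.48, adjusted p = 0.0758). Over the mean of the 7 times it was -1.17 ± 0.28 (adjusted p = 0.0254), lost without sham replicate 1 (adjusted p = 0.0656), 3 (0.104), 5 (0.0505) or 6 (0.0596). Its neighbours Cyp4f4, Cyp4f5 and Cyp4f6 were called at none of the times.

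**Figure D3:**
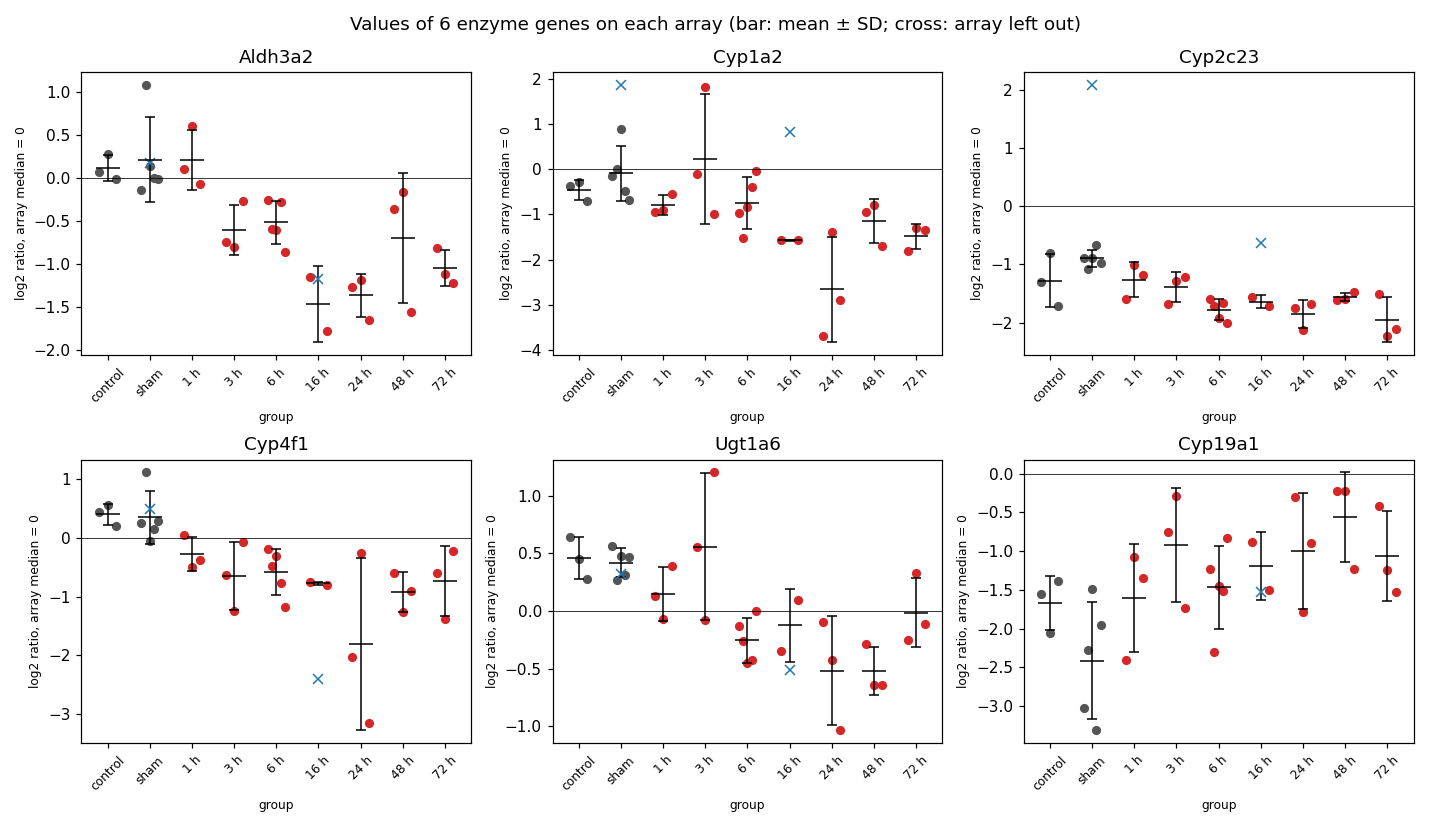
Log2 ratio to the organ pool (y axis, array median 0) of 6 genes on each array, by group (x axis), with the mean ± SD as bars, bled arrays in red, unbled in grey and the 2 arrays left out as crosses. Aldh3a2, Cyp2c23 and Cyp4f1 lie below every sham array from 3 h on, and the mean of Cyp19a1 lies above its sham mean at every time.

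Among the steroid-making P450s Cyp19a1 and Cyp11b2 were called higher and Cyp11b1 lower, each at a single time. Cyp11a1, Cyp17a1 and Cyp21a1 were called at no time. Cyp19a1 read -3.02, -2.28, -1.49, -3.31 and -1.96 on sham arrays and -0.23, -0.23 and -1.23 at 48 h, where all 3 arrays were above all 5 sham arrays. It rose by 1.85 ± 0.44 at 48 h (SE, adjusted p = 0.0421) and by 1.30 ± 0.30 over the mean of the 7 times (adjusted p = 0.0184). Its controls, at -1.56, -2.06 and -1.39, were higher than most sham arrays. The spots of Cyp19a1 lay a median of 0.42 apart and at most 2.36. The 48 h call was lost in 10 of 30 omissions (adjusted p up to 0.142, without 48 h replicate 2), and the mean over times without sham replicate 1 (1.14, adjusted p = 0.086) or sham replicate 5 (1.07, 0.0821).

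Cyp11b2, the aldosterone synthase, rose by 1.80 ± 0.43 at 72 h (adjusted p = 0.0165). Its 72 h arrays read -0.11, 1.60 and 1.26, against -0.81, -1.53, -0.01, -0.76 and -1.32 in sham, so 1 of the 3 lay within the sham range. The call was lost without 72 h replicate 2 (1.46, adjusted p = 0.131) or 72 h replicate 3 (1.63, 0.12). Cyp11b1, the glucocorticoid-making 11-beta-hydroxylase beside it, had values of -0.66 and -2.27 on the 2 arrays of 3 h that gave one, and sham values of 0.41, -0.12, 0.14, -0.36 and -0.69. It fell by 1.34 at 3 h (SE 0.35, adjusted p = 0.041). That change was -0.35 (adjusted p = 0.494) once ratios at or below 0.05 were set to missing, and it was lost without sham replicate 1 (adjusted p = 0.0738), 3 (0.069), 5 (0.0583) or 6 (0.053). Cyp11b3 was not called at any time.

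Smaller P450 changes were seen at 72 h. Cyp2a2 rose by 1.18 ± 0.33, with 72 h arrays at 0.74, 0.44 and 1.01, all above sham (-0.90 to 0.07). Cyp2d3 rose by 0.73 ± 0.21 (0.22, 0.96 and 1.04, with sham from -0.37 to 0.28, overlapping) and Cyp2b3 by 0.66 ± 0.19 (0.97, 1.48 and 1.69, overlapping 0.53 to 0.97 in sham). Cyp2d4, next to Cyp2d3, fell by 1.46 ± 0.38 (-1.40, -0.83 and -2.38, all below sham at -0.48 to 0.05). Adjusted p-values (limma) were 0.037, 0.0401, 0.0459 and 0.0235. The first 3 were lost in 6, 7 and 13 of 30 omissions and with all 32 arrays, and Cyp2d4 only without 72 h replicate 3 (-1.04, adjusted p = 0.223).

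Most aldehyde dehydrogenases lay below sham after bleeding. At 1 h and at 24 h 10 of 10 members were below sham, and over the mean of the 7 times again 10 of 10, with a median of -0.49 (all features: 0.03, with 52.8% above 0). The count over the mean of the times stayed at 10 of 10 under each omission of 1 array, uncentred, after quantile normalization and with all 32 arrays, where the 1 h count was 9. Under omissions of 1 array it was 8 to 10 at 1 h and 9 to 10 at 24 h. The family median was -0.38 at 1 h and lowest at -0.81 at 24 h. Aldh1l1, Aldh3a1, Aldh3a2, Aldh5a1 and Aldh6a1 were below sham at all 7 times. Of the 48 Cyp genes tested 6 were below and 4 above at all 7 times. These comparisons share the same sham arrays, and the share of all features with 1 sign throughout was not counted. At 72 h 7 of 10 were below. Of the 10, 4 were called lower at 1 or more of the 7 times, beside 10.7% of all features called in either direction, and 1 of them over the mean of the times. Of all 87 members 16 were called at 1 or more times.

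Aldh3a2, the fatty aldehyde dehydrogenase, is the member whose change was called most often. Sham arrays read -0.14, 1.08, 0.14, -0.01 and -0.01, controls 0.07, 0.28 and -0.01, and 1 h arrays 0.10, 0.60 and -0.08, which overlapped. It read -0.75, -0.80 and -0.27 at 3 h, -1.15 and -1.78 at 16 h, -1.27, -1.19 and -1.65 at 24 h, and -0.81, -1.12 and -1.22 at 72 h. From 3 h on every bled array was below every sham and control array. It fell by 1.68 at 16 h (SE 0.33, adjusted p = 0.0484), by 1.58 at 24 h (SE 0.29, adjusted p = 0.0052), by 1.27 at 72 h (SE 0.29, adjusted p = 0.0143) and by 1.00 over the mean of the 7 times (SE 0.20, adjusted p = 0.0075). The 24 h and mean calls held under each omission of 1 array (adjusted p at most 0.0473 and 0.0468) and with all 32 arrays. The 16 h call was lost in 20 of 30 omissions, and the 72 h call without 72 h replicate 2 (adjusted p = 0.0831) or 3 (0.0995).

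Aldh5a1 fell by 1.98 at 24 h (SE 0.46, adjusted p = 0.019), from sham values of -0.64, 0.32, -0.90, -0.00 and 0.15 to a mean of -2.20 ± 1.13 (SD, n = 3), with the lowest array at -3.26 and the median at -2.32. All 3 arrays were below sham, 1 of them narrowly, and the call was lost without 24 h replicate 3 (-1.45, adjusted p = 0.189) or sham replicate 3 (-1.85, 0.0502). Aldh6a1 fell by 1.39 at 72 h (SE 0.41, adjusted p = 0.044), from -1.32 to -0.19 in sham to -1.65, -1.77 and -3.47. Aldh9a1, a carnitine synthesis enzyme, fell by 1.28 (SE 0.38, adjusted p = 0.0469), from -0.22 to 0.83 in sham to -0.76, -1.09 and -0.43. Both lay wholly below sham at 72 h, and these calls were lost in 8 and 16 of 30 omissions and with all 32 arrays. Without 72 h replicate 3 the change of Aldh6a1 was -0.80, and its call was also lost with near-floor and near-ceiling ratios missing. Aldh3a1, the neighbour of Aldh3a2, differed from sham by -1.24 at 3 h with 3 h arrays at -0.78, -1.34 and -0.18 that overlapped sham (-0.47 to 1.03), and was not called.

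**Figure D4:**
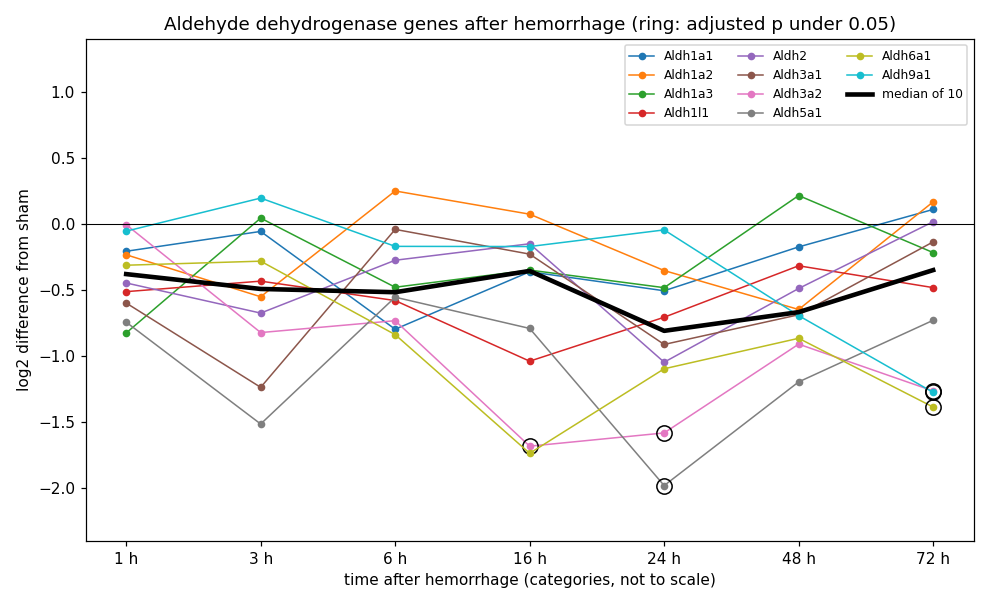
Log2 difference from sham (y axis) of the 10 aldehyde dehydrogenase genes at the 7 times (x axis, not to scale), with the family median as a thick line and rings where the adjusted p was under 0.05. The median stays below 0 at every time, with its lowest value of -0.81 at 24 h.

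Glucuronosyltransferases lay on both sides of sham, 7 of 10 above it over the mean of the 7 times with a median of 0.37. With all 32 arrays that median was -0.22 and 4 of 10 were above, so the family's direction rests on leaving out sham replicate 2 and 16 h replicate 3. Ugt1a6 read 0.56, 0.27, 0.47, 0.31 and 0.47 on sham arrays and -0.10, -0.42 and -1.03 at 24 h, and all arrays at 6, 16, 24 and 48 h were below all sham arrays. It fell by 0.93 at 24 h (SE 0.24, adjusted p = 0.0314), and at 48 h its difference of -0.94 just missed the threshold (adjusted p = 0.0503). The 24 h call was lost in 5 of 30 omissions, most without 24 h replicate 3 (-0.68, adjusted p = 0.25). In contrast Ugt1a5, Ugt1a7c, Ugt2a1, Ugt2b, Ugt2b15 and Ugt8 were above sham at all 7 times, with none called. With all 32 arrays 1 of these 6, Ugt1a7c, still was above sham at all 7 times. The share of all features above sham throughout was not counted. Ugt8, the ceramide galactosyltransferase of myelin lipids, lay above every sham array (-0.99 to -0.25) at 6, 16, 48 and 72 h, for example at 0.05, 0.19 and 0.41 at 72 h. Ugt1a5, Ugt1a6 and Ugt1a7c come from a single locus with shared exons, so a probe in that part cannot tell them apart.

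Among the sulfotransferases Sult4a1 fell by 1.57 at 3 h (SE 0.34, adjusted p = 0.0181) and by 1.20 at 24 h (SE 0.34, adjusted p = 0.049). It read 0.87, 0.43, -0.39, 0.57 and 0.82 in sham, -1.76, -1.09 and -0.48 at 3 h, and -0.80, -0.64 and -0.79 at 24 h, with both sets of bled arrays below all sham arrays. At 72 h (0.49, 0.39 and 1.31) it overlapped sham again. The 3 h call was lost without sham replicate 6 (-1.48, adjusted p = 0.053) or 3 h replicate 1 (-1.24, 0.08), and the 24 h call in 18 of 30 omissions. Neither was called with all 32 arrays (-1.44, adjusted p = 0.103 at 3 h). Sult1c3 had the largest positive difference of any member, 2.36 at 3 h, which came from 1 array at 5.49 beside -1.22 and -1.26, and was not called.

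No glutathione transferase was called against sham at any single time. The smallest p of the family at 6 h belonged to Gstm3, with a difference of 0.59 ± 0.18 (adjusted p = 0.116). Gstt2 was called by the F test over the times (adjusted p = 0.0394).

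Members that missed the threshold with the smallest p at the times of few calls were as follows. At 1 h Sult1e1 differed by -0.91 ± 0.30 (SE), Cyp21a1 by -0.72 ± 0.31, Cyp2b21 by -0.67 ± 0.29 and Cyp3a62 by 1.14 ± 0.51, with adjusted p (limma) from 0.292 to 0.431. Omitting 1 array moved each of these: Cyp21a1 to -0.25 and Cyp2b21 to -0.36 without 1 h replicate 2, Sult1e1 to -0.60 without 1 h replicate 3 and Cyp3a62 to 0.57 without sham replicate 1. At 3 h these were Cyp19a1 (1.49 ± 0.44, adjusted p = 0.0585) and Cyp2c22 (-1.24 ± 0.38, 0.0654), the latter at -0.80 without 3 h replicate 2. At 6 h the smallest was Cyp2c23 (-0.88 ± 0.18, adjusted p = 0.0599), followed by Ugt2a1 (1.03 ± 0.29, 0.0866) and Ugt1a6 (-0.67 ± 0.21, 0.117). Aldh6a1 (-1.74 ± 0.47), Aldh1l1 (-1.04 ± 0.32) and Cyp2c23 (-0.74 ± 0.24) followed Aldh3a2 at 16 h, with adjusted p from 0.131 to 0.186, and Aldh6a1 was at -1.10 without 16 h replicate 1. At 48 h Ugt2b1 differed by -1.33 ± 0.40 (adjusted p = 0.0938) and Cyp2c23 by -0.67 ± 0.21 (0.108).

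Members that changed between the first hours and the later days were found by comparing the early times (1, 3 and 6 h, averaged) with the late ones (24, 48 and 72 h, averaged), which leaves sham out. Of 87 members 12 were called, 5 higher early and 7 higher late, beside 7.04% of all features. Higher early were Cyp1a2 by 1.33 ± 0.30 (SE, adjusted p = 0.0116), Cyp2d4 by 0.77 ± 0.23, Gsta1 by 0.74 ± 0.21, Aldh3a2 by 0.73 ± 0.18 and Ugt1a6 by 0.50 ± 0.15. Higher late, as negative differences, were Sult2a2 at -1.15 ± 0.31, Cyp11b2 at -1.14 ± 0.27 (adjusted p = 0.012), Cyp4x1 at -0.96 ± 0.25, Cyp2a2 at -0.72 ± 0.21, Sult1e1 at -0.70 ± 0.19, Cyp11b1 at -0.66 ± 0.20 and Gstt2 at -0.53 ± 0.16. Aldh3a2 had an adjusted p of 0.0172, and the other 9 ran from 0.0242 to 0.0462.

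Gsta1, an alpha-class glutathione transferase, read 1.05, 1.20 and 0.68 at 3 h and -0.96, 0.74 and -1.18 at 48 h, so its late arrays are scattered. Sult1e1, the estrogen sulfotransferase, read -0.68, -1.40 and -1.99 at 1 h and 0.39, 0.40 and 0.64 at 72 h, without overlap between those times. Cyp4x1 read -1.39, -1.34 and -0.87 at 1 h and 0.02, -0.37 and -0.06 at 72 h, again without overlap. Sult2a2, a hydroxysteroid sulfotransferase, was lowest at 6 h (-4.06 to -2.91) and highest at 48 h (-1.54 to -0.51). It had 3 spot values at or below a ratio of 0.05. With near-floor and near-ceiling ratios missing its difference was -0.95 and no longer called (adjusted p = 0.0504, limma). Cyp11b1 lost its early against late call in that setting too. Only Cyp1a2, Aldh3a2 and Cyp11b2 kept the early against late call under every omission of 1 array and with all 32 arrays. Cyp4x1 lost it without 24 h replicate 3 (-0.90, adjusted p = 0.0562) and with all 32 arrays (adjusted p = 0.0563).

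Marker lists of lung and blood cells, and some of other organs, also differed between sham and bled lungs, some of them from the first hours. The type II pneumocyte median was 1.67 to 2.76 in sham and 0.86 to 1.16 at 72 h, over 6 of 8 listed markers. The club cell marker Scgb1a1 fell by 2.15 at 72 h (adjusted p = 0.022), and so did Cyp4b1 among the 3 of 5 club cell markers measured. The third marker, the member Cyp2f4, was not called, at 0.55 to 0.88 in sham and 0.38 to 1.28 at 72 h. The neutrophil median was -0.62 to -0.00 in sham and 0.70 to 3.34 at 72 h over 3 of 6 markers. It was above sham already at 1 h (0.03 to 0.54), 3 h (0.49 to 1.61) and 6 h (0.42 to 0.99), and overlapped sham at 16 h. The kidney median, over 4 of 5 markers, was -0.24 to 0.17 in sham and -0.54 to -0.27 at 6 h. It was -0.78 to -0.36 at 24 h, -0.99 to -0.56 at 48 h and -0.65 to -0.46 at 72 h. The medians at these 4 times did not overlap sham, while controls spanned -0.65 to -0.06. The 4 markers did not move together, with 0 called at 24 h, 1 lower at 48 h and 1 lower at 72 h. Umod and Slc34a1 stayed within their sham ranges at 24, 48 and 72 h. Slc22a6, at 0.36 to 0.92 in sham, lay below it at 48 h (-0.26 to -0.23) and 72 h (-0.29 to 0.21). Kap lay below sham at 72 h only. How often other sets of 4 genes separate in this way was not tested. The gut median, over 3 of 5 markers, was -1.27 to -0.63 in sham and overlapped it at 24 h (-1.33 to -1.06) and 72 h (-1.47 to -1.09). At 48 h it was -1.39 to -1.27, at or just below the lowest sham array. Of the 3 gut markers 1 was called lower at each of 3, 24, 48 and 72 h. The liver median was -1.34 to -0.72 in sham, -0.60 to -0.40 at 24 h and -0.90 to -0.49 at 72 h. It was also above sham at 1 h (-0.59 to -0.24) and 3 h (-0.63 to -0.33). The highest liver medians were on 6 h replicate 4 (0.29) and 48 h replicate 2 (0.18). The part of these shifts in the changes of the enzyme genes was not tested.

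The other genes of the pathway, a list of 72 sensors, electron donors, further enzymes, cofactor suppliers and pumps of which 50 were measured, gave calls at 4 of the 7 times. At 3 h 2 of the 50 rose and 2 fell, beside 2.8% of all features called. At 24 h 2 fell, beside 3.55%, at 48 h 1 fell, beside 1.17%, and at 72 h 4 fell, beside 5.91%. Fmo2, the flavin monooxygenase of lung, fell by 1.62 at 24 h (SE 0.39, adjusted p = 0.0205) and by 1.81 at 72 h (SE 0.39, adjusted p = 0.00858). Ugdh, which makes the sugar donor of the Ugt enzymes, fell by 1.41 at 24 h (adjusted p = 0.025). Gclm and Gclc, the subunits of the enzyme that starts glutathione synthesis, fell by 1.10 at 3 h (adjusted p = 0.041) and by 1.13 at 72 h (adjusted p = 0.0483). Only 1 of these 2 genes was called at each of these times. At 3 h Cyb5a, an electron donor to P450s, rose by 1.03 (adjusted p = 0.0428) and Xdh, xanthine dehydrogenase, by 1.35 (adjusted p = 0.0249). Nat1, an acetyltransferase, fell by 1.00 at 48 h (adjusted p = 0.044), and at 72 h Akr1a1, an aldehyde reductase, fell by 1.56 (adjusted p = 0.0248) and Cyp4b1 by 1.02 (adjusted p = 0.0468). Early against late, 4 of the 50 were called higher early and 2 higher late, beside 7.04% of all features. Fmo5, 1 of those higher early, differed by 0.99 (adjusted p = 0.0369). The F test over the times called 5 of the 50, beside 5.69%. The mean of the 7 times called 1, lower than sham, beside 3.42%. These other calls are given as counts. Por, the reductase that feeds the microsomal P450s, and Nqo1, a further AHR target, were not called at any time.

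Many members lie in tandem clusters. Taking members within 10 protein-coding genes of each other in the RefSeq order, 59 of the 87 placed members fell into 16 clusters, among them Cyp1a1, Cyp1a2 and Cyp11a1, Cyp11b1 to Cyp11b3, Cyp2d2 to Cyp2d4, the Cyp4f genes and the Ugt2b genes. Cluster mates could differ, as with Cyp2d3 (0.73) and Cyp2d4 (-1.46) at 72 h. Near-identical copies can share signal on a spotted array, so for these genes the value of 1 copy cannot be told apart from that of its neighbours.

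The 2 arrays left out were chosen for their high liver markers, so high ratios of liver-rich enzymes on them follow from that choice and are given as a description. On sham replicate 2, 37 of the 85 tested members with a value were above each of the 30 other arrays, beside 12.6% of all features, and 5 below, beside 15.3%. On 16 h replicate 3 it was 31 of 87 above, beside 17.8%, and 5 below, beside 11.6%. Ugt2b15 read 5.24 and 2.74 on these 2 arrays, against at most 0.34 elsewhere, Cyp2c12 3.56 and 2.18 against at most -0.44, and Sult2a6, a hydroxysteroid sulfotransferase, 3.56 and 3.49 against at most 0.11. Of the Ugt genes 8 of 10 were above every other array on sham replicate 2, and of the Aldh genes 1 of 10. Aldh3a2, at 0.18 on sham replicate 2 and -1.17 on 16 h replicate 3, lay within the range of its own group on both.

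**Figure D5:**
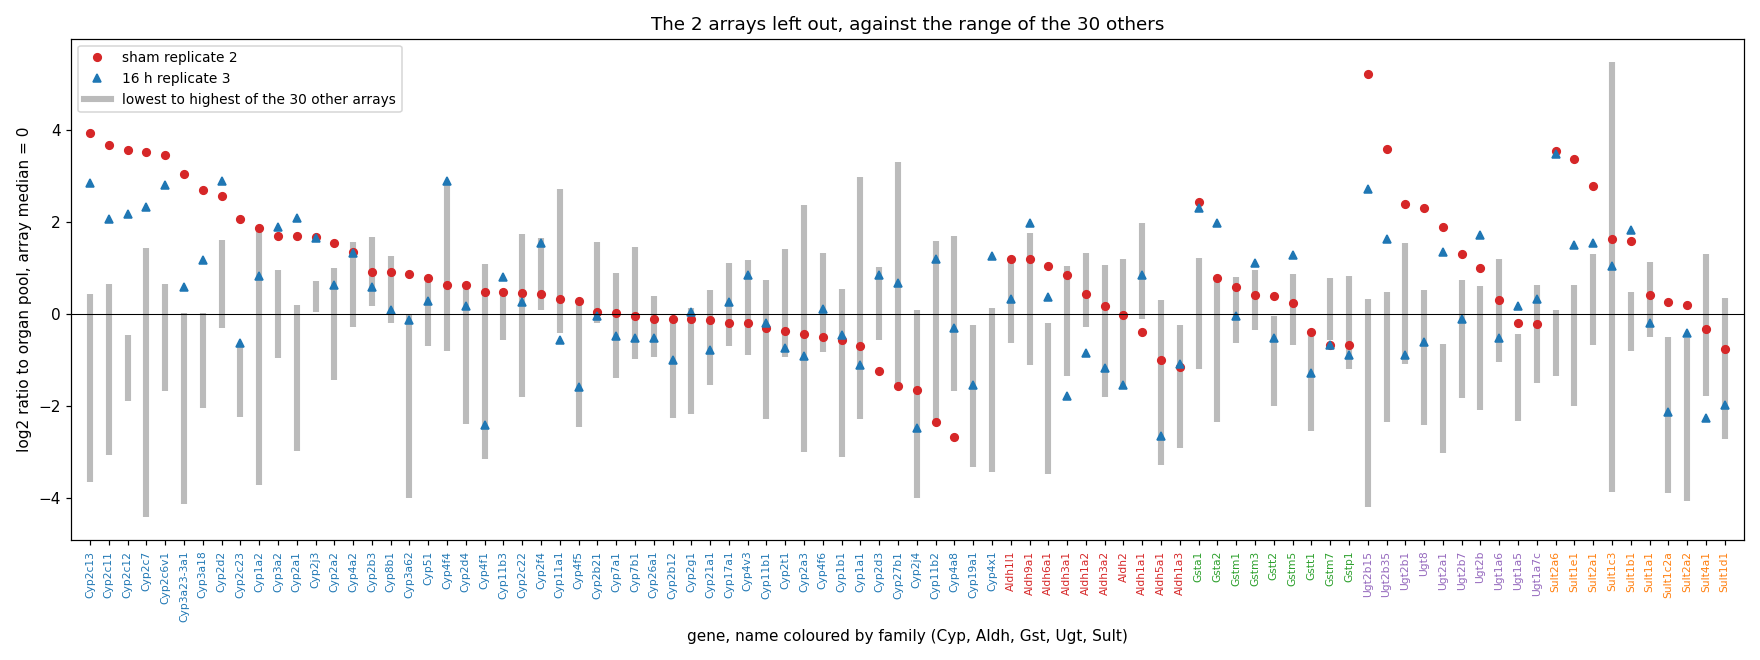
Log2 ratio to the organ pool (y axis, array median 0) of each gene on sham replicate 2 (circles) and 16 h replicate 3 (triangles), with grey bars from the lowest to the highest of the 30 other arrays, by family. Circles lie above the bars for 18 of 47 Cyp, 8 of 10 Ugt, 6 of 10 Sult, 4 of 9 Gst and 1 of 10 Aldh genes, up to 5.24 for Ugt2b15.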

How the data were processed

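Spotted arrays with 2 colours compared the lung RNA of 32 samples with a pool of organ RNA, per the labels. Values were deposited as log2 ratios, already processed by the authors. Scanner, dyes and normalization were not given in the sources used. That table had array medians of -0.38 to 0.06, and each array was centred on its median. Spots with 1 gene symbol in the platform annotation were averaged per gene, and 2 spots naming several sulfotransferases were left out. The 88 members include Cyp2a3, which had too few values to test.

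Differences were fitted in R 4.3.3 by limma 3.58.1 (group means, moderated with eBayes, two-sided) over 30 arrays in 9 groups, on 5993 features with values on at least 2 arrays of every group, with Benjamini-Hochberg adjustment within each of 12 comparisons. An adjusted p under 0.05 is a call. Sham replicate 2 and 16 h replicate 3 were left out for their liver signal and return in an alternative. Errors after a change are SEs. The fit was tested on simulated data. The number of arrays limits the precision.

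The text names called members (up to 8 per direction, or, with under 4 calls, the 4 of smallest p), the 3 highest and 3 lowest per family in unbled lung, and pathway genes that were called. Other genes named beside them, such as Cyp1a1, Cyp1b1, Aldh3a1, Ugt8, Sult1c3, Nqo1 and Por, were chosen after their values were seen. Members and lists were chosen with earlier results of these data known. Alternatives were all 32 arrays, uncentred values, quantile normalization, no filter, unaveraged probes, ratios at or below 0.05 or at or above 20 set to missing, the replicate number as a block, and omission of each array in turn.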

Additional observations from a re-analysis of the deposited data

Results flagged for a closer look

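Of 98 combinations of 49 genes with the sham and 6 h groups, 7 had 1 array far from the others; chance gives about 1 in 20. On sham replicate 3 Aldh3a2 read 1.08 (others -0.14 to 0.14) and Cyp4f1 1.11 (others -0.05 to 0.27). Without that array the change of Aldh3a2 over the mean of the 7 times was -0.78 (adjusted p = 0.0468, limma) and that of Cyp4f1 -0.98 (adjusted p = 0.104). Cyp2d4 read -0.48 on sham replicate 1 (others -0.02 to 0.05) and Sult1a1 0.094 on sham replicate 4 (others 0.86 to 1.05). At 6 h, Cyp11b1 read 0.34 on replicate 1 (others -0.47 to -0.33), and replicate 4 gave -0.17 for Cyp3a62 (others -0.75 to -0.58) and -0.61 for Cyp2c12 (others -1.40 to -1.28). On 6 h replicate 4 the liver marker median was 0.29, against -0.86 to -0.51 on the other 6 h arrays, and its part in these values was not tested.

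In 12 members the early mean (1, 3 and 6 h) differed from the late mean (24, 48 and 72 h) in limma. Early minus late was 1.33 for Cyp1a2, 0.77 for Cyp2d4, 0.74 for Gsta1, 0.73 for Aldh3a2 and 0.50 for Ugt1a6. It was -1.15 for Sult2a2, -1.14 for Cyp11b2, -0.96 for Cyp4x1, -0.72 for Cyp2a2, -0.70 for Sult1e1, -0.66 for Cyp11b1 and -0.53 for Gstt2.

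On the arrays outside the comparisons, left out for their liver signal, 37 members on sham replicate 2 and 31 on 16 h replicate 3 read above each of the 30 others, beside 12.6% and 17.8% of all features.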

How the results depend on the processing

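Of 44 calls of a named member in a comparison outside unbled lung, 9 held under each of the 30 omissions of 1 array and 19 with all 32 arrays, and 8 of the 9 did both. Among the families, Aldh kept its median below 0 and Ugt changed sign with all 32 arrays, from 0.37 to -0.22 over the mean of the times. No named change reversed its sign in an alternative where it was called. With all 32 arrays the members called were 0 at 3 h (2 in the text), 2 at 16 h (1), 0 at 48 h (1), 4 at 72 h (9), 2 by the F test (9), 7 over the mean of the times (4) and 3 early against late (12). With near-floor ratios missing they were 1 at 3 h and 2 at 48 h. Without the filter there were 0 at 16 h, uncentred 9 over the mean of the times, and after quantile normalization 3 at 48 h. The replicate block gave 0 at 48 h, 3 at 72 h and 2 by the F test, but the numbers do not pair the arrays: the median correlation of deviations was 0.000907 over 94 same-number pairs, and 8 of 30 arrays had their closest partner under their own number.

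Leaving out 1 array gave 0 to 0 calls at 1 h, 0 to 9 at 3 h, 0 to 1 at 6 h, 0 to 1 at 16 h, 2 to 9 at 24 h, 0 to 3 at 48 h and 0 to 11 at 72 h. It gave 2 to 18 by the F test, 2 to 7 over the mean of the times, 3 to 14 early against late, 0 to 0 for sham against control and 50 to 60 in unbled lung. The lowest counts came without 24 h replicate 3 at 24 h (2) and early against late (3), and without 72 h replicate 3 at 72 h (0). The highest at 3 h (9), 48 h (3), by the F test (18) and over the mean of the times (7) came without 3 h replicate 3. Omitting a 16 h array leaves 1, assumed to vary like the other groups. The cause of these shifts was not tested.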
